A study of Mus musculus with 6 samples.

Results

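The genes examined were the ligands and receptors of the tumour necrosis factor (TNF) superfamily that carry *Tnf*, *Tnfsf* or *Tnfrsf* symbols, with *Ltbr* and *Cd40*, and the Trafs, the adaptor proteins that bind the tails of many of these receptors. They were picked by a pattern of gene symbols, and 1 further receptor gene that fits the pattern was left out by rule. This gave 40 of the 17092 genes in the table, of which 12 were ligands, 21 were receptors and 7 were Trafs. Their mRNA was measured by RNA-seq in MEFs, which are fibroblasts cultured from mouse embryos. WT MEFs, for which the study used C57BL/6 mice, were compared with MEFs from mice with a global, CRISPR-made knockout of *Aff3ir-ORF2*, a transcript nested in *Aff3*, with 3 libraries of each genotype and no treatment given in the labels. The embryonic age, the number of embryos and whether the libraries came from separate cultures were not given, so the p-values measure only the spread between these libraries, which may be technical.

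TNF superfamily ligands are mostly made as trimeric membrane proteins, which can be shed, and they cluster their receptors on the responding cell. Receptors with a death domain recruit adaptors that lead to cell death or to NF-κB, while the others bind Trafs directly and lead to NF-κB and MAP kinases. Some receptors lack a signalling tail or are secreted and act as decoys. Fibroblasts are known both to respond to TNF and to supply ligands such as RANKL (*Tnfsf11*) and the secreted decoy of RANKL, osteoprotegerin (*Tnfrsf11b*).

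The authors' table gave an estimated read count per gene and library, with totals from 17435133 to 17726034 in WT and from 18209421 to 18252330 in *Aff3ir-ORF2*-/- libraries. The targeted transcript was not analysed here, so it could not be used to check the labels. Fibroblast markers (10 genes such as *Col1a1* and *Vim*) summed to between 27948 and 28043 CPM (counts scaled to the library total, corrected by the TMM method) in WT and to between 24295 and 30487 in *Aff3ir-ORF2*-/- libraries. The sum held changes in both directions. By the adjusted p of the test described below, 3 were higher (*Fn1*, *Pdgfrb* and *Lum*), 3 were lower (*Col1a1*, *Col1a2* and *Vim*) and 4 did not pass. All 16 of 16 macrophage markers were higher in *Aff3ir-ORF2*-/- MEFs, by the same test with its fold limit, beside 14.2% of all tested genes. Of these markers, 7 had fewer than 10 counts in at least 1 WT library. Those 7 could pass the count filter of the test more readily by being high in *Aff3ir-ORF2*-/- libraries, so the 16 of 16 is given as a description. The summed level of the 16 markers was 25.1 to 28.3 CPM in WT. It was 1412 CPM in replicate 1, 1918 in replicate 2 and 2390 in replicate 3 of *Aff3ir-ORF2*-/- MEFs. In bulk RNA, fewer cells of a type and less RNA per cell cannot be told apart. Of 4 T cell markers in the table, *Cd28* was higher (from 5 to 7 counts in WT libraries to between 33 and 64 in those of *Aff3ir-ORF2*-/- MEFs), *Lck* did not pass, *Cd8a* had too few counts to test and *Cd4* was at the floor of 3 counts in both genotypes. Of 4 dendritic cell markers, 1 was tested, *Zbtb46*, which was higher by 1.51-fold, and *Flt3* and *Clec9a* were at the floor in both. Their summed level was 1.99 to 2.86 CPM in WT and 3.68 to 4.24 CPM in *Aff3ir-ORF2*-/- libraries. Both B cell markers in the table, *Cd79a* and *Pax5*, were at the floor. Among the 7 endothelial markers in the table, 5 were tested, 3 were higher and 1 was lower, and the 7 summed to 7.95 to 8.87 CPM in WT and 16.5 to 21.3 CPM in *Aff3ir-ORF2*-/- libraries. The part of these marker levels in the results that follow was not tested.

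The genotypes were compared with edgeR's quasi-likelihood test over all 13075 genes with enough counts, with Benjamini-Hochberg adjusted p-values. A gene was called higher or lower at an adjusted p under 0.05 and a change of at least 1.5-fold. Of the 40 genes, 30 were tested, and 10 had too few counts. In *Aff3ir-ORF2*-/- MEFs 11 of the 30 were higher, beside 14.2% of all tested genes, and 1 was lower, beside 7.27% of all tested genes. By the adjusted p with no limit on the fold, 16 were higher, where the background was 29.3%, and 8 were lower, where it was 27.5%. The counts of the genotypes did not overlap, on the CPM scale, for 16 genes that were higher, with a background of 33.3%, and for 9 that were lower, with a background of 32.7%. The median log2 fold change was 0.31 over the 30 genes and 0.0056 over all tested genes. Of the 11 higher genes, 6 were ligands, 4 were receptors and 1 was a Traf. Of the 30, 7 had fewer than 10 counts in at least 1 WT library and so could pass the count filter more readily by being high in *Aff3ir-ORF2*-/- libraries, which is why no test is drawn from the tested genes as a group.

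**Figure D1:**
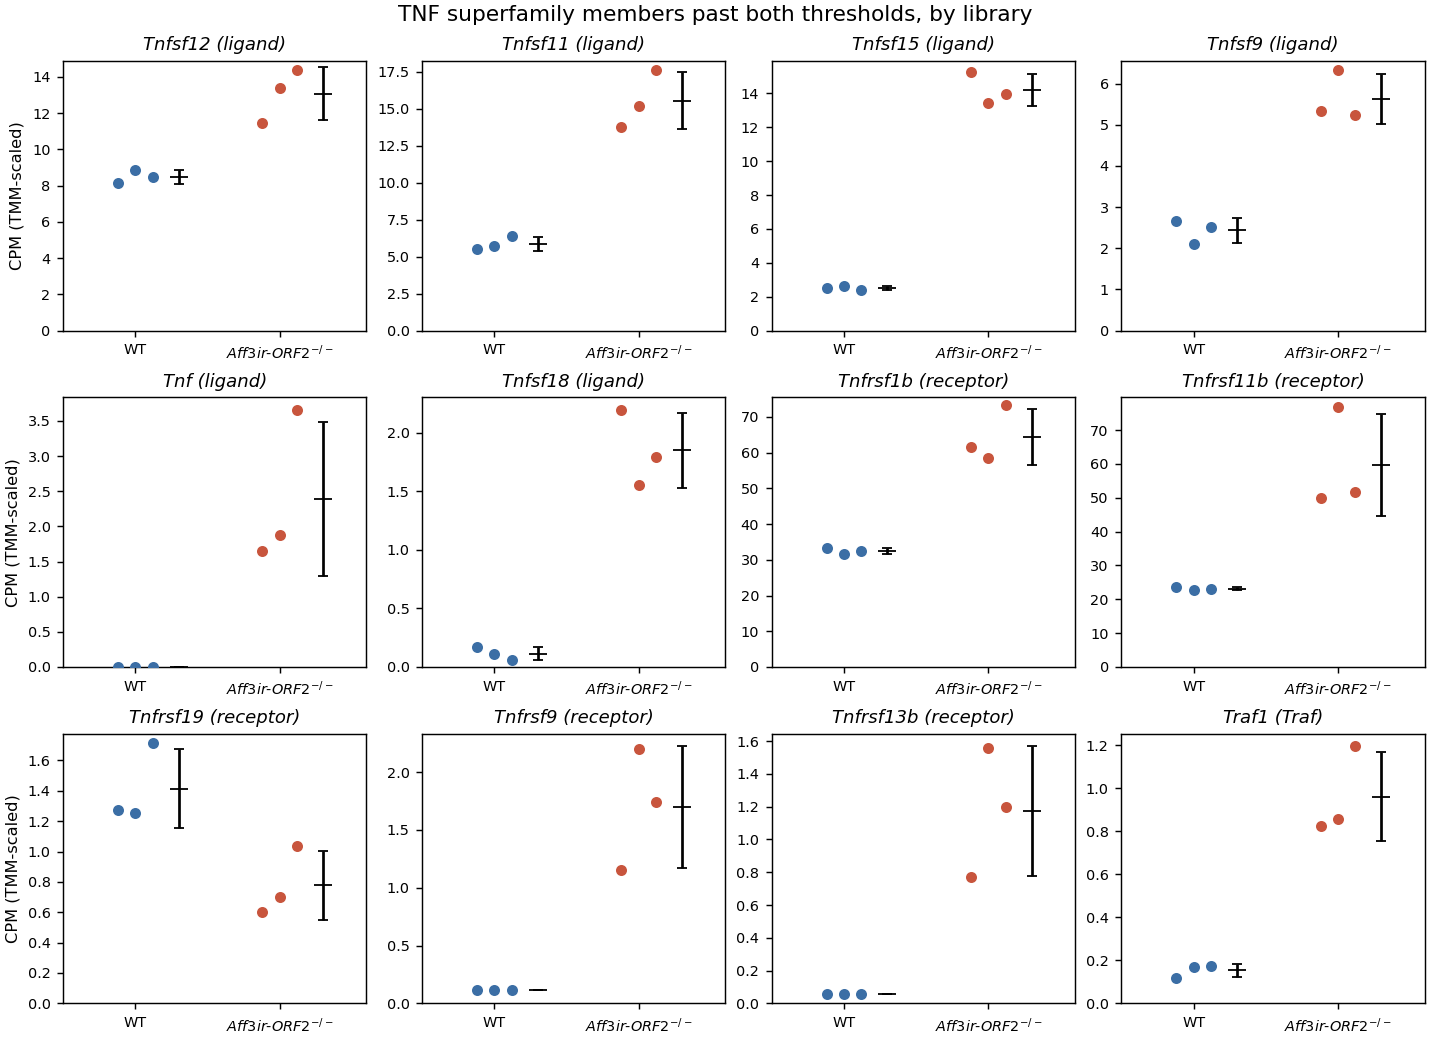
CPM (counts scaled to the library total by the TMM method) of the 12 genes past both thresholds in the 3 WT (blue) and 3 *Aff3ir-ORF2*-/- (red) libraries, with a linear axis from 0 in each panel; black marks are the mean and the SD over 3 libraries. The 11 higher genes have every *Aff3ir-ORF2*-/- library above every WT library, and *Tnfrsf19* has every *Aff3ir-ORF2*-/- library below every WT library.

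The sequences before the start sites of 4 of the 6 ligands that were higher, and of *Tnfrsf9*, are shown because ligands made up most of the higher genes, and that of *Tnfrsf9* because it held the κB and AP-1 matches found among the regions of higher genes. It was chosen after the matches were seen. Each is the 250 bases before a RefSeq start site on the gene's own strand, 5′ to 3′, in GRCm38.p6 coordinates. Capitals mark matches on either strand to the κB decamer, to the AP-1 site TGANTCA, to the PU.1 site GAGGAAGT or to the TATA element TATAAA.
Tnf (chr17:35202008-35202257, - strand): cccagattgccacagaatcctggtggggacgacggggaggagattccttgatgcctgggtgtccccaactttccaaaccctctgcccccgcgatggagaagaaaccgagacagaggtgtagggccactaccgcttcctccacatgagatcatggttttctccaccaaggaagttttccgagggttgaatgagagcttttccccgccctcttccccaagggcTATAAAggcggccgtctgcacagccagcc
Tnfsf15 (chr4:63745060-63745309, - strand): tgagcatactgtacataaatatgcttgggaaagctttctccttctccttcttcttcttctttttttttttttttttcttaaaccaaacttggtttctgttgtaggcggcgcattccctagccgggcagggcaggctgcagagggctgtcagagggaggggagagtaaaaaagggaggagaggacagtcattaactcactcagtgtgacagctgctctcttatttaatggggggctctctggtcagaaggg
Tnfsf11 (chr14:78308044-78308293, - strand): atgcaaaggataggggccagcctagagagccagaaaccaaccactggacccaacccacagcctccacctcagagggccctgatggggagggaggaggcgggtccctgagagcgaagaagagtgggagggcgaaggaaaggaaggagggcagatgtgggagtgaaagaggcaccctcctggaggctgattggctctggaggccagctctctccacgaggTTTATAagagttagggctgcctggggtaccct
Tnfsf18 (chr1:161494407-161494656, + strand): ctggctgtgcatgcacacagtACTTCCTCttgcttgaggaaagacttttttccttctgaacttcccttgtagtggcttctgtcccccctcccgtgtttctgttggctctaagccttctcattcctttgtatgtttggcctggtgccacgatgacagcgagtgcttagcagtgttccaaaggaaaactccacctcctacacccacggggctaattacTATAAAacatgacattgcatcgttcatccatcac
Tnfrsf9 (chr4:150927749-150927998, + strand): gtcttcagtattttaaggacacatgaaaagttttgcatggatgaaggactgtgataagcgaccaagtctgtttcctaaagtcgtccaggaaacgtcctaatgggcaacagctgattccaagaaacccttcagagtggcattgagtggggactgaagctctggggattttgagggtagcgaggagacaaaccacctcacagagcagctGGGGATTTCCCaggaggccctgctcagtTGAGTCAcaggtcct

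The *Tnf* sequence held a TATA match from base -29 to -24 and none of the other motifs. That of *Tnfsf11* held TATA letters on the opposite strand from -32 to -27, and that of *Tnfsf18* held them on its own strand from -34 to -29. *Tnfsf18* also had a PU.1 match on the opposite strand, from -229 to -222. In the second *Tnfrsf9* start region, overlapping κB matches ran from -43 to -33, and an AP-1 match ran from -15 to -9. No match lay in the *Tnfsf15* sequence, in the first *Tnfrsf9* start region or in the regions of *Tnfrsf1b*, *Tnfrsf13b* and *Traf1*. Of the 40 genes, 33 had a RefSeq start region of 300 bases (250 before and 50 after the start), with 37 regions in all, and 8 of the 11 higher genes were among them. The κB decamer was found in 4 of the 37 regions, and in 8.46% of all 32851 regions in the table. AP-1 letters were in 6 regions (7.81% of all), PU.1 letters in 3 (3.2% of all), TATA letters in 5 (13.6% of all) and the Egr site GCGTGGGCG in 0 (0.612% of all). The regions of *Tnfsf13b* overlap, and the same AP-1 letters were counted in each of them. In the 9 regions of higher genes, TATA letters were found in 3 and the κB, AP-1 and PU.1 letters in 1 each. These are matches of letters, not sites shown to be bound.

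Of the 12 ligands, 7 were tested, and 6 of them were higher in *Aff3ir-ORF2*-/- MEFs at both thresholds, beside 14.2% of all tested genes. None was lower, beside 7.27% of all tested genes. *Tnf*, *Tnfsf18* and *Tnfsf13* would not have passed the count filter by their WT counts, so the number higher among the tested ligands is in part set by the filter and is given as a description. The summed level of the 12 ligands was 19.3 to 20.9 CPM in WT and 51.5 to 57.4 CPM in *Aff3ir-ORF2*-/- libraries, so the genotypes did not overlap. Macrophage markers were higher in the same libraries, as given above.

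*Tnf* (gene ID 21926), the cytokine that gives the family its name, had 0 counts in all 3 WT libraries. In *Aff3ir-ORF2*-/- MEFs it had 30 counts in replicate 1, 35 in replicate 2 and 67 in replicate 3. Taken against a floor of 3 counts per library, *Tnf* was at least 13.7-fold higher in *Aff3ir-ORF2*-/- MEFs (edgeR adjusted p = 0.000483). The library with the most *Tnf* counts, *Aff3ir-ORF2*-/- replicate 3, was also the one with the highest macrophage marker total. This order of the libraries was not tested, and other higher genes peaked in the other replicates, as given below. *Lta*, the lymphotoxin gene next to *Tnf* in the RefSeq gene order, had 4, 2 and 3 counts in WT libraries, against 1, 1 and 3 in those of *Aff3ir-ORF2*-/- MEFs, and was not tested.

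*Tnfsf15* (TL1A, gene ID 326623), a ligand of *Tnfrsf25*, had 43, 46 and 42 counts in WT libraries, against 278, 250 and 256 in those of *Aff3ir-ORF2*-/- MEFs. The groups were far apart and each was tight, with mean levels of 2.50 ± 0.107 and 14.2 ± 0.951 CPM (SD, n = 3). The log2 fold change of *Tnfsf15*, 2.50 (SE 0.12), was a 5.66-fold difference with an edgeR adjusted p of 7.1e-07.

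*Tnfsf11* (RANKL, gene ID 21943), the ligand needed to form osteoclasts, had 95, 100 and 112 counts in WT libraries, against 251, 283 and 323 in those of *Aff3ir-ORF2*-/- MEFs. Every *Aff3ir-ORF2*-/- library was above every WT library. The difference was 2.64-fold, or 1.40 on the log2 scale (SE 0.12, edgeR adjusted p = 1.34e-05). Of 8 osteoclast markers in the table, 4 were tested. *Acp5* was higher (0.364 CPM in WT and 3.3 CPM in *Aff3ir-ORF2*-/- MEFs), as was *Atp6v0d2* (0.0384 and 4.2 CPM). Neither would have passed the count filter by its WT counts alone. *Ctsk* was lower by the adjusted p alone (150.4 and 118 CPM), and *Mmp9* did not pass (11.1 and 12.7 CPM, edgeR adjusted p = 0.449). *Oscar* had too few counts to test, and *Calcr*, *Ocstamp* and *Dcstamp* were at 3 counts or fewer in every library. The 8 markers summed to 156 to 168 CPM in WT and 124 to 162 CPM in *Aff3ir-ORF2*-/- libraries, and most of this sum was *Ctsk*.

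*Tnfsf9* (gene ID 21950), a co-stimulatory ligand for *Tnfrsf9*, had 46, 37 and 44 counts in WT libraries, against 97, 118 and 96 in those of *Aff3ir-ORF2*-/- MEFs. It rose 2.31-fold (log2 fold change 1.21, SE 0.16, edgeR adjusted p = 0.000183). *Tnfsf18* (gene ID 240873), the ligand of *Tnfrsf18*, was at the floor in WT with 3, 2 and 1 counts and had 40, 29 and 33 counts in *Aff3ir-ORF2*-/- libraries. The ratio of its summed counts, corrected for library size, was 16.1, with an exact 95% counting interval of 7.15 to 44.9 (edgeR adjusted p = 3.58e-05). Both genes thus had separate groups, although *Tnfsf18* rests on 6 WT counts in all. Intervals of this kind were given only for genes at the floor in WT and not in *Aff3ir-ORF2*-/- libraries. They describe a difference by which the genes were picked and are no further support for it.

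*Tnfsf12* (TWEAK, gene ID 21944), a ligand made by many cell types, changed least among the 6 higher ligands. It had 140, 156 and 148 counts in WT libraries, against 209, 249 and 264 in those of *Aff3ir-ORF2*-/- MEFs. The change was 1.54-fold, just past the limit (log2 fold change 0.62, SE 0.11, edgeR adjusted p = 0.000874). Without *Aff3ir-ORF2*-/- replicate 3 it was 0.55 on the log2 scale, under the 1.5-fold limit. The estimated counts of *Tnfsf12* and of its neighbour *Tnfsf13* were not whole numbers in any of the 6 libraries, so reads may have been split between genes, and both values are uncertain.

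*Tnfsf13* (APRIL), a B cell survival factor, had 3, 3 and 10 counts in WT libraries, against 15, 14 and 4 in those of *Aff3ir-ORF2*-/- MEFs. Its groups overlapped, and the log2 fold change of 0.95 (SE 0.62, edgeR adjusted p = 0.215) did not pass. *Tnfsf8*, the ligand of *Tnfrsf8*, had 0, 1 and 2 counts in WT libraries, against 15, 24 and 5 in those of *Aff3ir-ORF2*-/- MEFs, and fell below the count filter. The ratio of summed counts for *Tnfsf8* was 13.9 (exact 95% counting interval 4.45 to 70.0). The interval pools the libraries of a genotype and leaves out the spread between them. With no filter on low counts *Tnfsf8* would be called higher (edgeR adjusted p = 0.0024), as it was with DESeq2 (adjusted p = 0.00241). It was also called where a WT library or *Aff3ir-ORF2*-/- replicate 3 was left out. In those fits fewer libraries are needed to pass the count filter, and *Tnfsf8* passed it through the *Aff3ir-ORF2*-/- libraries where it was high. Without *Aff3ir-ORF2*-/- replicate 1 or 2 it stayed untested.

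The remaining ligands were scarcely counted in either genotype. *Tnfsf13b* (BAFF), which keeps B cells alive, had 1 to 6 counts in WT libraries, against 2 to 5 in those of *Aff3ir-ORF2*-/- MEFs. *Tnfsf4*, *Tnfsf10* (TRAIL) and *Tnfsf14* (LIGHT) were at 3 counts or fewer in every library, so a difference was not detectable at this depth. *Ltb* was not analysed here. In the RefSeq gene order, *Tnfsf4* and *Fasl* flank *Tnfsf18* and *Tnfsf14* is close to *Tnfsf9*, and all 3 of these neighbours were at the floor in both genotypes.

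**Figure D2:**
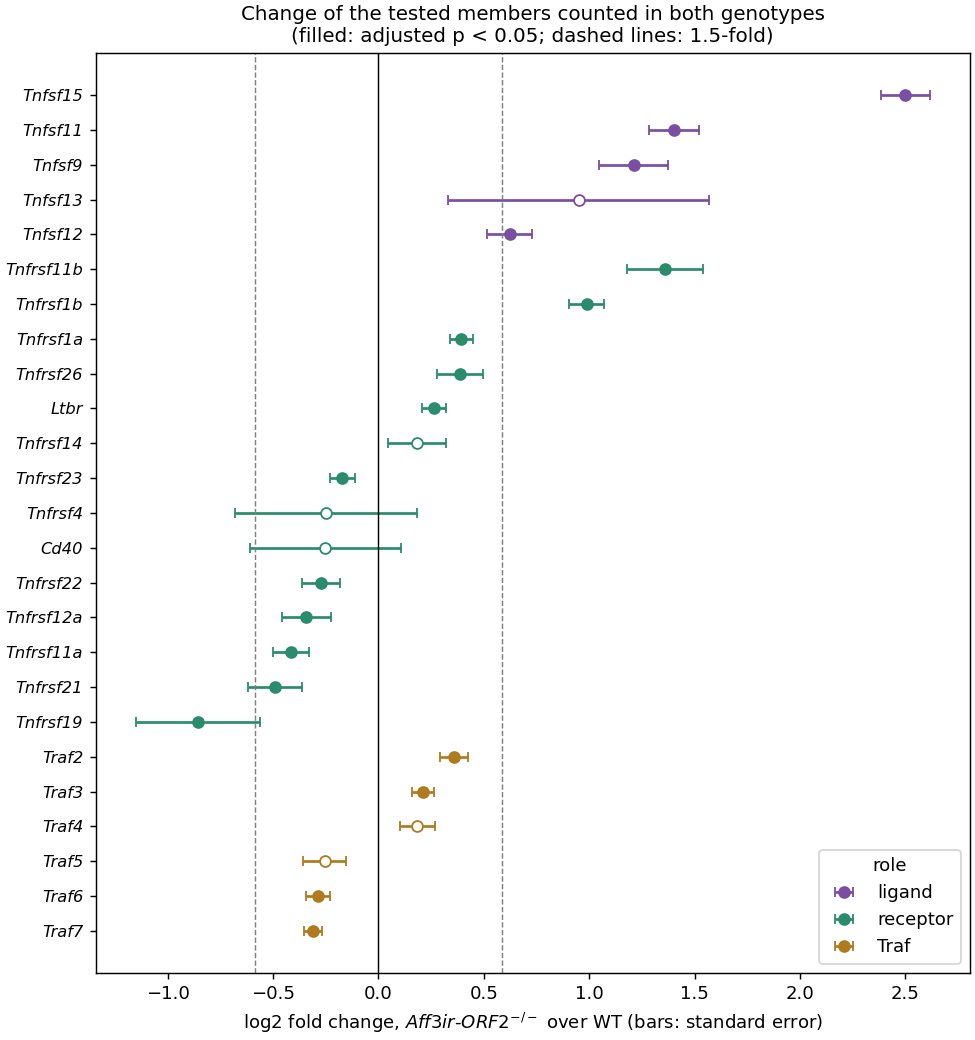
Log2 fold change (*Aff3ir-ORF2*-/- over WT) with its standard error for the 25 tested genes that were above 3 counts in at least 1 library of both genotypes, grouped by role; filled points have an adjusted p under 0.05 and dashed lines mark 1.5-fold. The ligands lie to the right of 0, from 0.62 to 2.50, while the receptors lie on both sides, from -0.86 to 1.36, and the 6 Trafs drawn lie within 1.5-fold.

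Of 21 receptors, 16 were tested, of which 4 were higher and 1 was lower, beside 14.2% and 7.27% of all tested genes. By the adjusted p with no fold limit, 7 were higher and 6 were lower, beside 29.3% and 27.5% of all tested genes, and 3 did not pass. The summed level of the 21 receptors was 648 to 665 CPM in WT and 682 to 728 CPM in *Aff3ir-ORF2*-/- libraries. *Tnfrsf9*, *Tnfrsf13b* and *Tnfrsf4* would not have passed the count filter by their WT counts alone.

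The receptors for TNF were both higher by the adjusted p, to different degrees. *Tnfrsf1b* (TNF receptor 2, gene ID 21938), which lacks a death domain and binds Trafs, had 574, 557 and 569 counts in WT libraries, against 1123, 1089 and 1346 in those of *Aff3ir-ORF2*-/- MEFs. Its level went from 32.5 ± 0.805 to 64.5 ± 7.84 CPM (SD, n = 3), a 1.98-fold rise (log2 fold change 0.99, SE 0.08, edgeR adjusted p = 1.48e-05). *Tnfrsf1a* (TNF receptor 1), which carries a death domain and is found on most cells, had 1768, 1757 and 1766 counts in WT libraries, against 2359, 2668 and 2306 in those of *Aff3ir-ORF2*-/- MEFs. This was a rise of 0.39 on the log2 scale (SE 0.05, edgeR adjusted p = 0.000231), below the 1.5-fold limit. Neither gene's groups overlapped. *Tnfrsf8*, next to *Tnfrsf1b* on chromosome 4, had at most 1 count in any library.

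The count of *Tnfrsf1b* over that of *Tnfrsf1a* within a library was 0.325, 0.317 and 0.322 in WT and 0.476, 0.408 and 0.584 in *Aff3ir-ORF2*-/- libraries. The ratio was 1.51-fold higher in *Aff3ir-ORF2*-/- MEFs, with no overlap (exact permutation test on the log2 ratio, two-sided p = 0.1, the smallest p that 3 against 3 libraries allow). A ratio within a library does not depend on the scaling of the libraries.

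The RANKL system showed rises in the ligand and its decoy and a small fall in the signalling receptor. *Tnfrsf11b* (osteoprotegerin, gene ID 18383), the secreted decoy for RANKL, had 409, 400 and 403 counts in WT libraries, against 910, 1433 and 950 in those of *Aff3ir-ORF2*-/- MEFs. It rose 2.57-fold (log2 fold change 1.36, SE 0.18, edgeR adjusted p = 0.000955). *Aff3ir-ORF2*-/- replicate 2 stood above the other two, and without it the log2 fold change was 1.13. *Tnfrsf11a* (RANK) had 355, 390 and 404 counts in WT libraries, against 269, 324 and 318 in those of *Aff3ir-ORF2*-/- MEFs. It fell by 0.41 on the log2 scale (SE 0.09, edgeR adjusted p = 0.00252), which is under 1.5-fold, with no overlap of CPM.

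The count of *Tnfsf11* over that of *Tnfrsf11b* was 0.232, 0.250 and 0.278 in WT and 0.276, 0.197 and 0.340 in *Aff3ir-ORF2*-/- libraries. These ratios overlapped and differed by 0.066 on the log2 scale (exact permutation test, two-sided p = 0.9), and with 3 libraries a side the test could not have gone below 0.1. The count of *Tnfsf11* over *Tnfrsf11a* was 0.268, 0.256 and 0.277 in WT and 0.933, 0.873 and 1.02 in *Aff3ir-ORF2*-/- libraries, 3.52-fold higher with no overlap (exact permutation test, two-sided p = 0.1). *Tnfrsf11b* over *Tnfrsf11a* was 3.36-fold higher (exact permutation test, two-sided p = 0.1). Ratios were taken for 7 pairs of genes, and none could pass a threshold of 0.05. *Tnfsf11* and *Tnfrsf11b* were higher, and *Tnfrsf11a* lower, in every *Aff3ir-ORF2*-/- library. The lack of overlap of their ratios to *Tnfrsf11a*, and the permutation p, thus followed from the single genes and are no further support.

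**Figure D3:**
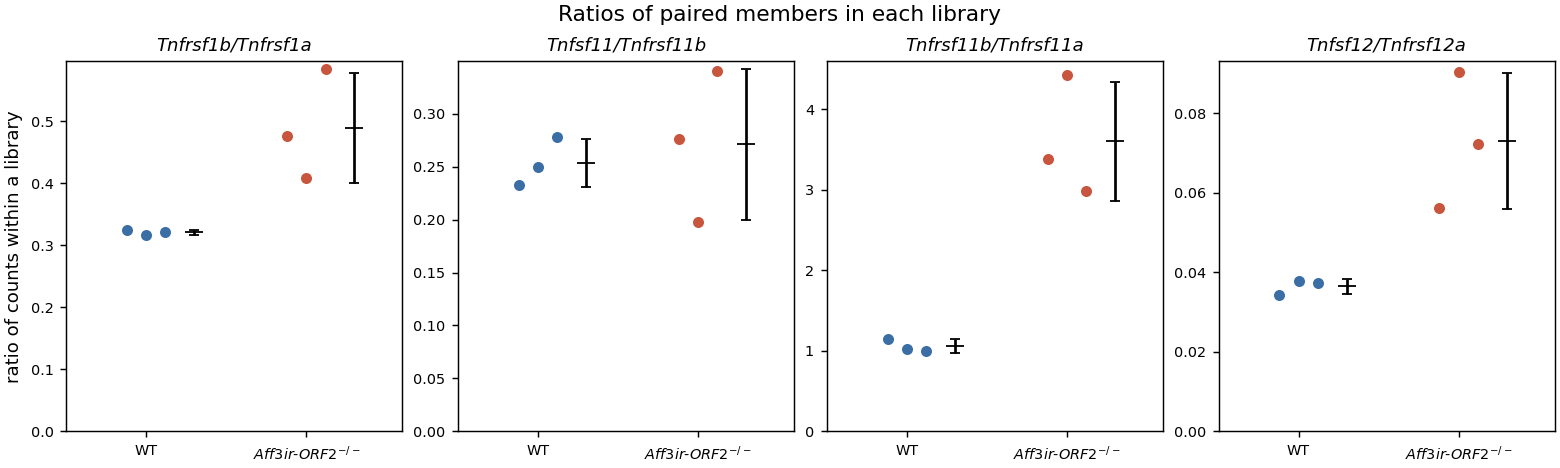
Ratio of the counts of paired genes within each of the 3 WT (blue) and 3 *Aff3ir-ORF2*-/- (red) libraries, on linear axes from 0, with the mean and SD over 3 libraries in black. *Tnfrsf1b* over *Tnfrsf1a*, *Tnfrsf11b* over *Tnfrsf11a* and *Tnfsf12* over *Tnfrsf12a* are higher in every *Aff3ir-ORF2*-/- library, while *Tnfsf11* over *Tnfrsf11b* overlaps between genotypes. For *Tnfrsf11b* over *Tnfrsf11a* and *Tnfsf12* over *Tnfrsf12a*, the separation follows from the single genes.

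*Tnfrsf9* (gene ID 21942), the receptor of *Tnfsf9* and a co-stimulatory receptor of activated T cells, had 2 counts in each WT library and 21, 41 and 32 in *Aff3ir-ORF2*-/- libraries. The ratio of its summed counts was 14.8 (exact 95% counting interval 6.57 to 41.5, edgeR adjusted p = 7.99e-05). *Tnfrsf13b* (TACI, gene ID 57916), a receptor for APRIL and BAFF known from B cells, had 1 count in each WT library and 14, 29 and 22 in *Aff3ir-ORF2*-/- libraries, a ratio of 20.5 (exact 95% counting interval 6.72 to 102, edgeR adjusted p = 0.00016). Both were at the floor in WT and above it in every *Aff3ir-ORF2*-/- library. The other receptors for the same ligands, *Tnfrsf13c* (BAFF receptor) and *Tnfrsf17* (BCMA), had 1 count in 1 WT library each and 0 in every *Aff3ir-ORF2*-/- library. The summed level of the 4 T cell markers in the table was 1.28 to 1.6 CPM in WT and 3.13 to 4.41 CPM in *Aff3ir-ORF2*-/- libraries. Nearly all of this difference was *Cd28* (mean 0.344 CPM in WT and 2.50 CPM in *Aff3ir-ORF2*-/- MEFs), while *Lck* (0.841 and 0.686 CPM) did not pass. Macrophage markers were higher in the same libraries, as given above.

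*Tnfrsf12a* (Fn14), the receptor of TWEAK, had the highest level per length of all 40 genes, at 236 CPM per kb in WT (mean of 3 libraries). It was counted 4085, 4117 and 3966 times in WT and 3722, 2755 and 3647 times in *Aff3ir-ORF2*-/- libraries. It fell by 0.34 on the log2 scale (SE 0.12, edgeR adjusted p = 0.0426), which is under 1.5-fold. *Aff3ir-ORF2*-/- replicate 2 was the lowest library, and the adjusted p rose to between 0.0831 and 0.0989 when any 1 WT library was left out and to 0.073 with no filter on low counts. The count of *Tnfsf12* over that of *Tnfrsf12a* was 1.96-fold higher in *Aff3ir-ORF2*-/- libraries, with no overlap (exact permutation test, two-sided p = 0.1). *Tnfsf12* was higher and *Tnfrsf12a* lower in every *Aff3ir-ORF2*-/- library, so this separation followed from the single genes.

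*Ltbr*, the lymphotoxin β receptor, is separated from *Tnfrsf1a* by 1 gene on chromosome 6. It had 1702, 1726 and 1583 counts in WT libraries, against 2161, 2012 and 2178 in those of *Aff3ir-ORF2*-/- MEFs, a rise of 0.26 on the log2 scale (SE 0.06, edgeR adjusted p = 0.00269). *Tnfrsf26*, *Tnfrsf22* and *Tnfrsf23* lie side by side on chromosome 7, and the last 2 encode decoy receptors for TRAIL. *Tnfrsf26* was higher by 0.39 on the log2 scale (edgeR adjusted p = 0.013), whereas *Tnfrsf22* fell by 0.27 (edgeR adjusted p = 0.0274) and *Tnfrsf23* fell by 0.17 (edgeR adjusted p = 0.0314). The counts of *Tnfrsf22* and *Tnfrsf23* were not whole in any of the 6 libraries, so reads may have been shared between them. None of the 3 changes was firm. The adjusted p of *Tnfrsf23* went over the threshold when any 1 WT library was left out (0.0672 to 0.111), with DESeq2 (0.0606) and with upper-quartile scaling (0.0536), that of *Tnfrsf22* without WT replicate 1 (0.0977) or 3 (0.0861), and that of *Tnfrsf26* without WT replicate 3 (0.0609). Their ratio overlapped between genotypes (exact permutation test, two-sided p = 0.2).

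*Tnfrsf19* (TROY, gene ID 29820), a receptor known from the nervous system and skin, was the 1 gene called lower, with 22, 22 and 30 counts in WT libraries, against 11, 13 and 19 in those of *Aff3ir-ORF2*-/- MEFs. It fell by 0.86 on the log2 scale (SE 0.30, edgeR adjusted p = 0.0321). The call was lost with DESeq2 (adjusted p = 0.114) and with limma voom (adjusted p = 0.0512), and when any 1 library other than *Aff3ir-ORF2*-/- replicate 3 was left out. *Tnfrsf21* (death receptor 6) fell by 0.49 (SE 0.13, edgeR adjusted p = 0.00885), under 1.5-fold, from 177 to 203 counts in WT to 115 to 156 in *Aff3ir-ORF2*-/- libraries.

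Of the 3 tested receptors that did not pass, *Tnfrsf14* (HVEM), a receptor for LIGHT, had a log2 fold change of 0.18 (SE 0.14, edgeR adjusted p = 0.282). *Cd40*, which receives help from T cells on antigen-presenting cells, had 51, 61 and 38 counts in WT libraries, against 39, 70 and 24 in those of *Aff3ir-ORF2*-/- MEFs, and the groups overlapped (log2 fold change -0.25, SE 0.36, edgeR adjusted p = 0.571). Leaving out *Aff3ir-ORF2*-/- replicate 2 made it -0.74 and past the threshold (edgeR adjusted p = 0.0266), while leaving out replicate 3 made it 0.040. *Tnfrsf4* (OX40) had 6 to 18 counts in WT libraries, against 8 to 13 in those of *Aff3ir-ORF2*-/- MEFs (log2 fold change -0.25, SE 0.43, edgeR adjusted p = 0.646).

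Below the count filter, *Tnfrsf18* (GITR) had 3, 1 and 5 counts in WT libraries, against 4, 7 and 8 in those of *Aff3ir-ORF2*-/- MEFs, which overlapped. *Tnfrsf25*, the receptor of TL1A, had 2 counts in each WT library and 5, 5 and 3 in *Aff3ir-ORF2*-/- libraries, a ratio of 2.05 whose exact 95% counting interval of 0.728 to 6.59 included 1. The rises of *Tnfsf18* and *Tnfsf15* were thus found where their receptors stayed below the count filter. *Tnfsf9* and *Tnfrsf9* were both called higher, and the count of the ligand over that of the receptor was 18.5 to 23 in WT and 2.88 to 4.62 in *Aff3ir-ORF2*-/- libraries, with 2 receptor counts behind each WT ratio.

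**Figure D4:**
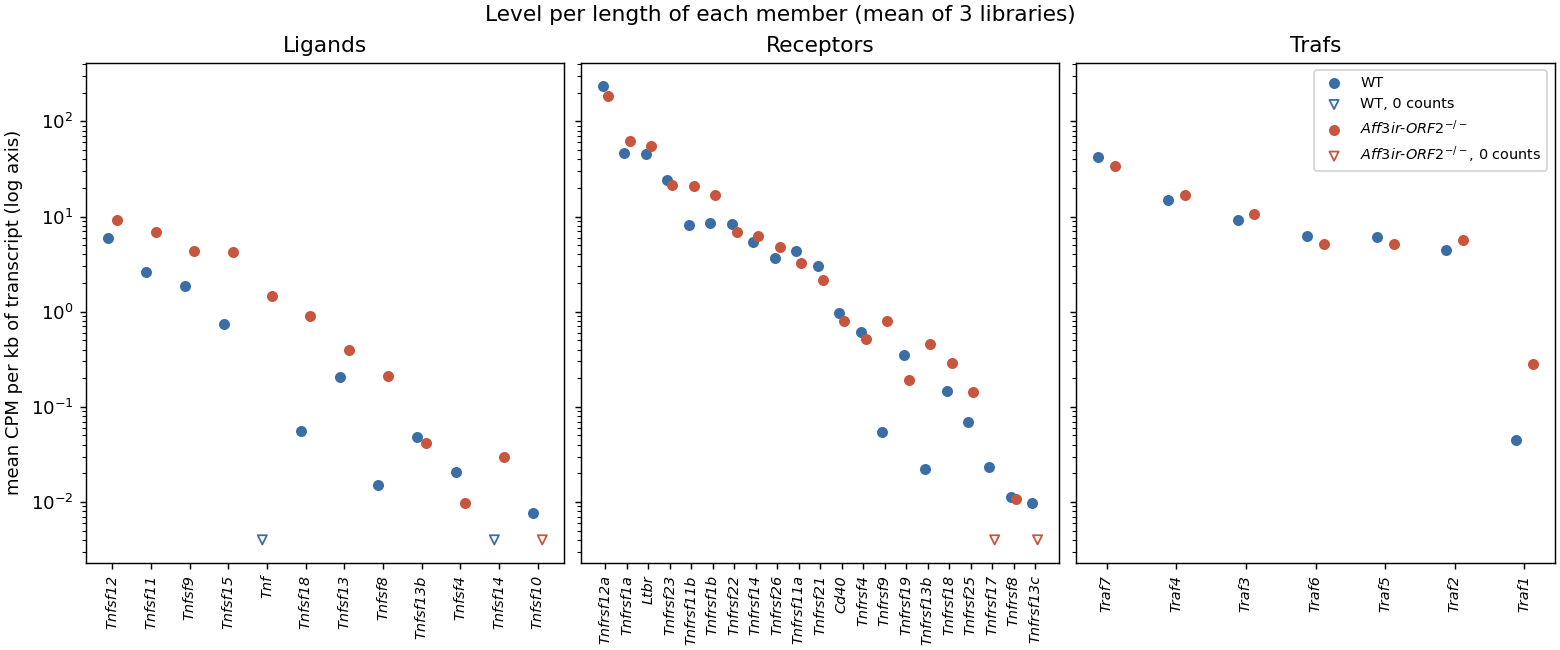
Mean level of each of the 40 genes per length (CPM per kb of the longest GENCODE M21 transcript, log axis) in WT (blue) and *Aff3ir-ORF2*-/- (red) libraries, by role; open triangles at the bottom stand for genes with 0 counts in all 3 libraries. The receptors span from 236 CPM per kb for *Tnfrsf12a* in WT down to single counts, the Trafs except *Traf1* lie above 4 CPM per kb, and no ligand exceeds 10 CPM per kb.

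On the scale of CPM per kb, *Tnfrsf12a* was followed in WT by *Tnfrsf1a* at 46.9, *Ltbr* at 45.5 and *Traf7* at 42.4. The highest ligand was *Tnfsf12* at 5.92 in WT and 9.11 in *Aff3ir-ORF2*-/- MEFs. *Tnfsf15*, at 0.748 CPM per kb in WT, reached 4.25 in *Aff3ir-ORF2*-/- MEFs, beside 4.36 for *Tnfsf9*. The order of the ligands by level in *Aff3ir-ORF2*-/- MEFs was *Tnfsf12*, *Tnfsf11*, *Tnfsf9*, *Tnfsf15* and *Tnf*, and the levels of *Tnfsf9* and *Tnfsf15* differed by less than their spread over the 3 libraries.

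All 7 Trafs were tested, and 1, *Traf1*, was called higher, beside 14.2% of all tested genes, while 0 were called lower, beside 7.27%. *Traf1* would not have passed the count filter by its WT counts alone. By the adjusted p with no fold limit, 3 were higher and 2 were lower, beside 29.3% and 27.5% of all tested genes. The summed level was 316 to 318 CPM in WT and 293 to 312 CPM in *Aff3ir-ORF2*-/- libraries. *Traf1* (gene ID 22029), which lacks the RING domain of the other Trafs that bind TNF receptors and is itself induced by NF-κB, had 2, 3 and 3 counts in WT libraries, against 15, 16 and 22 in those of *Aff3ir-ORF2*-/- MEFs. The ratio of its summed counts was 6.28 (exact 95% counting interval 2.96 to 15.3, edgeR adjusted p = 0.000565), and the groups did not overlap.

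*Traf2*, the ubiquitin ligase adaptor of both TNF receptors, had 327, 311 and 314 counts in WT libraries, against 415, 447 and 426 in those of *Aff3ir-ORF2*-/- MEFs, a rise of 0.36 on the log2 scale (SE 0.07, edgeR adjusted p = 0.00122). *Traf3*, a brake on the non-canonical NF-κB pathway, had 1076, 1111 and 1171 counts in WT libraries, against 1363, 1322 and 1419 in those of *Aff3ir-ORF2*-/- MEFs, a rise of 0.21 (SE 0.05, edgeR adjusted p = 0.00669). Both rises were under 1.5-fold, and neither gene's groups overlapped. *Traf7*, which differs from the rest by its WD40 repeats, had 2347, 2441 and 2300 counts in WT libraries, against 2030, 1996 and 2001 in those of *Aff3ir-ORF2*-/- MEFs, and fell by 0.31 on the log2 scale (SE 0.04, edgeR adjusted p = 0.000219). *Traf6*, which also serves the interleukin-1 and Toll-like receptors, fell by 0.29 (SE 0.06, edgeR adjusted p = 0.0024).

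*Traf4* had 871, 822 and 820 counts in WT libraries, against 1040, 883 and 1090 in those of *Aff3ir-ORF2*-/- MEFs, and its log2 fold change of 0.18 did not pass (SE 0.08, edgeR adjusted p = 0.0845). It passed without *Aff3ir-ORF2*-/- replicate 2 (log2 fold change 0.27, edgeR adjusted p = 0.000276). *Traf5* did not pass either (log2 fold change -0.26, SE 0.10, edgeR adjusted p = 0.0564), and it did without *Aff3ir-ORF2*-/- replicate 3 (-0.32, edgeR adjusted p = 0.0336). Across all 40 genes, the SD of the CPM was larger in *Aff3ir-ORF2*-/- than in WT libraries for 29. This was not particular to these genes, since it also held for 24 of the 31 signalling genes described below and for 10 of 10 fibroblast markers. The share over all genes was not computed. The SD was not corrected for the mean level, which also differed between genotypes, so a larger spread at the same level was not shown.

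Superfamily genes whose names do not follow the pattern were looked at from a list of 11, of which 9 were in the table and 5 were tested. *Fas*, a death receptor, had 55, 70 and 54 counts in WT libraries, against 116, 150 and 126 in those of *Aff3ir-ORF2*-/- MEFs, and was higher by 2.07-fold (log2 fold change 1.05, SE 0.16, edgeR adjusted p = 0.000341). *Eda2r*, the ectodysplasin A2 receptor, was higher by 0.29 on the log2 scale and *Relt* was lower by the adjusted p alone (log2 fold change -0.43). *Eda* and *Ngfr* did not pass, and *Fasl*, *Cd27* and *Edar* were at the floor in both genotypes. *Ngfr* had 78 to 86 counts in WT libraries, against 108, 91 and 250 in those of *Aff3ir-ORF2*-/- MEFs, and its groups overlapped on the CPM scale.

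Genes for proteins that carry the signal from the receptors were taken from a list of adaptors, kinases, ubiquitin enzymes and shedding factors. Of 31 tested, 2 were higher and 1 was lower, beside 14.2% and 7.27% of all tested genes. By the adjusted p with no fold limit, 12 were higher and 10 were lower, beside 29.3% and 27.5% of all tested genes, and 9 did not pass. Their median log2 fold change was 0.031. The most counted of them were *Tab2* (log2 fold change -0.0047, edgeR adjusted p = 0.927), *Map3k7* (TAK1, -0.12, edgeR adjusted p = 0.047), *Ripk3* (-0.19, edgeR adjusted p = 0.0374) and *Cflar*, an inhibitor of caspase-8 (0.16, edgeR adjusted p = 0.126).

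*Rhbdf2*, a partner of the protease that sheds TNF, had 110, 129 and 116 counts in WT libraries, against 322, 399 and 344 in those of *Aff3ir-ORF2*-/- MEFs, a 2.84-fold rise (log2 fold change 1.51, SE 0.10, edgeR adjusted p = 4.16e-06). The protease itself, *Adam17*, had a log2 fold change of 0.0082 (SE 0.055, edgeR adjusted p = 0.907). *Ikbke*, an IκB kinase-related kinase, had 141, 137 and 111 counts in WT libraries, against 281, 315 and 326 in those of *Aff3ir-ORF2*-/- MEFs, a 2.24-fold rise (log2 fold change 1.17, SE 0.11, edgeR adjusted p = 2.36e-05). *Tnfaip3* (A20), which ends TNF receptor signalling and is induced by NF-κB, went the other way. It had 530, 490 and 512 counts in WT libraries, against 254, 224 and 305 in those of *Aff3ir-ORF2*-/- MEFs, and fell by 1.05 on the log2 scale (SE 0.11, edgeR adjusted p = 4e-05).

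**Figure D5:**
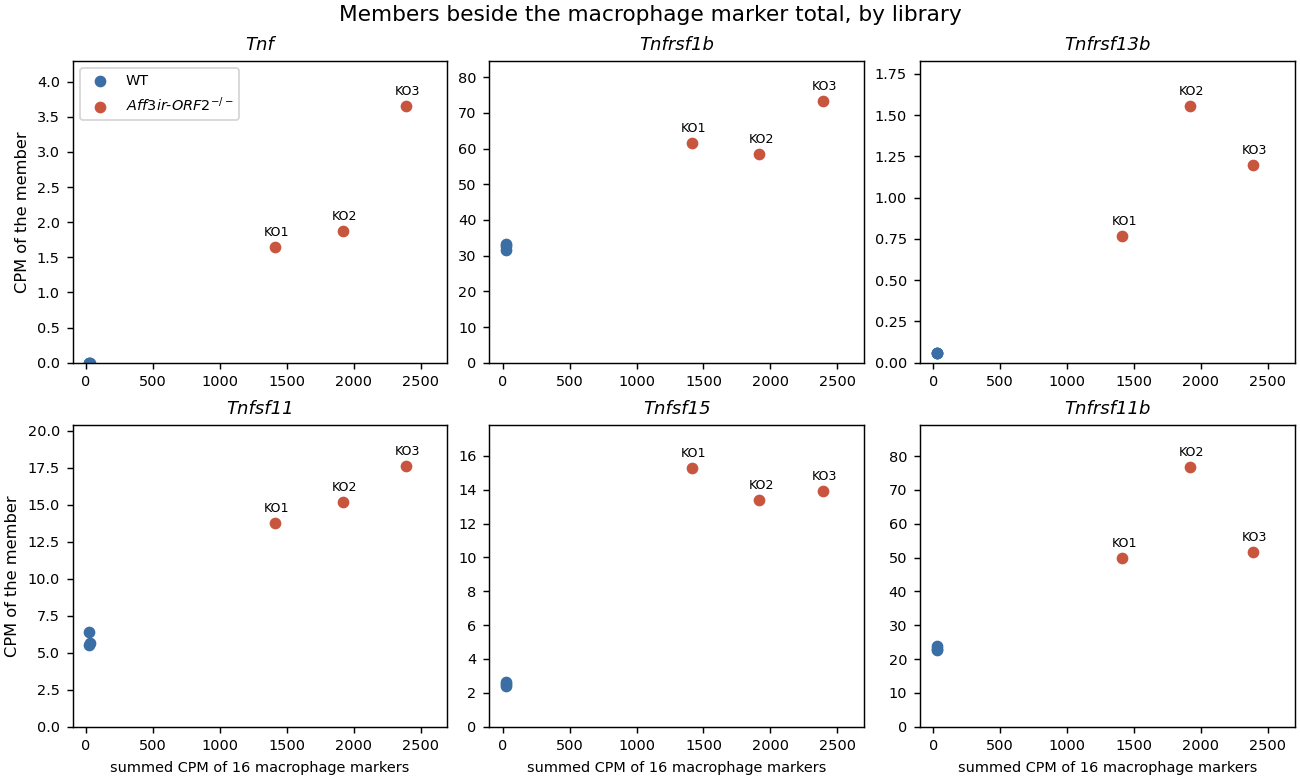
CPM of 6 genes (vertical axes, from 0) against the summed CPM of 16 macrophage markers (horizontal axes) in the 3 WT (blue) and 3 *Aff3ir-ORF2*-/- (red) libraries; KO1 to KO3 are the replicate numbers. The WT libraries sit at 25.1 to 28.3 CPM of markers and the *Aff3ir-ORF2*-/- libraries at 1412 to 2390, and *Tnf* and *Tnfsf11* are highest in replicate 3, *Tnfsf15* in replicate 1 and *Tnfrsf11b* in replicate 2.

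The 6 libraries fall into 2 clusters by macrophage marker level, which are the 2 genotypes, so no correlation across libraries was computed. Among the 11 higher genes, *Tnf*, *Tnfsf11*, *Tnfsf12*, *Tnfrsf1b* and *Traf1* had their highest counts in *Aff3ir-ORF2*-/- replicate 3, the library with the most macrophage marker counts. *Tnfsf9*, *Tnfrsf9*, *Tnfrsf11b* and *Tnfrsf13b* were highest in replicate 2, and *Tnfsf15* and *Tnfsf18* in replicate 1. These orders within 1 genotype were not tested. In WT libraries, the most counted macrophage markers were *Lyz2* and *Cd68*, at 162 to 199 and 54 to 69 counts. *Cd14* had 42 to 52 and *Csf1r* 42 to 48, so the WT cultures were not free of such transcripts. Of the 16 markers, only *Spi1* was at 3 counts or fewer in every WT library.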

How the data were processed

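The 6 RNA-seq libraries came from MEFs, 3 of WT and 3 of *Aff3ir-ORF2*-/- genotype. The authors filtered paired-end DNBSEQ reads with SOAPnuke and deposited an estimated count per gene and library, not normalized. The aligner, counter and annotation are not given in the sources used here; the submitters' processing notes name mm8. Estimated counts were rounded, since 10.6% to 11.3% of a library's values were not whole. In edgeR 4.0.16, filterByExpr (at its limits of 10 counts and 15 in total) left 13075 genes, which were scaled by TMM (factors 0.989 to 1.02) and tested by glmQLFTest with robust estimation, as in an earlier analysis of these data. Standard errors are the log2 fold change over the square root of F. The floor of detection was 3 counts (0.161 to 0.174 CPM), and a genotype with no library above it was said to be at the floor. Count ratios have exact binomial intervals on counts summed over libraries, for genes picked by being at the floor in WT only. Floors and intervals cover counting error only.

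Tested on simulated data for this comparison (12965 genes tested, 198 of them changed 3-fold), edgeR recovered 190 and made 5 false calls. The real data had far more called genes, and calls were made down to 1.5-fold, so these rates need not hold for them. Other scalings, filters, DESeq2 1.42.0, limma 3.58.1 voom, a replicate block, left-out libraries and other fold limits were the alternatives. R 4.3.3 and Python 3.11.15 with matplotlib 3.10.9 were used.

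The genes and lists were chosen with earlier results of these data known. Counts in every library were given for genes past both thresholds, at the floor in 1 genotype, or among the 3 highest of a role. Genes shown beyond this rule, and the TATA motif, were chosen after their values or sequences were seen. Lengths are of the longest GENCODE M21 transcript, and start regions and gene order come from RefSeq (GRCm38.p6).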

Additional observations from a re-analysis of the deposited data

How the results depend on the processing

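Of the 11 genes called higher, 11 or 12 were called under each other scaling, with no filter, with DESeq2, limma voom or edgeR without robust estimation, and with any library left out, though not always the same genes (*Tnfsf12* was lost without *Aff3ir-ORF2*-/- replicate 3, and *Tnfsf8* was gained in several). With at least 10 counts in every library 6 were called, since the other 5 were no longer tested. *Tnfsf13* and *Tnfrsf4*, which had not been called, were no longer tested either. Over all genes, that filter gave 1405 higher and 825 lower. The number of genes it left was not computed, so no share is given beside the 6. A 2-fold limit gave 9 higher genes. The 1 lower call became 0 with DESeq2, limma voom and a 2-fold limit, 8 with no fold limit, and 0 to 1 with a library left out (without *Aff3ir-ORF2*-/- replicate 2 the 1 was *Cd40*). Over all tested genes, 1096 were higher and 317 lower at 2-fold, and 3831 and 3591 with no fold limit. Among the other superfamily genes, 2 were higher with DESeq2 or with no fold limit, and 1 was lower with no fold limit. Of the signalling genes 12 were higher and 10 lower with no fold limit, and 2 to 4 were higher with a library left out (4 without *Aff3ir-ORF2*-/- replicate 1). Of 443 log2 fold changes of single genes under alternatives, 414 kept their direction and their side of the adjusted p threshold, 19 were no longer past the adjusted p and 8 newly passed it. The direction turned for 2, namely *Cd40* (0.040 without *Aff3ir-ORF2*-/- replicate 3, from -0.74 to 0.040 over the libraries left out) and *Tnfrsf4* (0.19 without WT replicate 2, from -0.55 to 0.19). Where the text gives no reason, the cause was not tested. No scaling moved the median of all genes by more than 0.043. Same-numbered libraries of the genotypes correlated at only 0.039, 0.042 and 0.015, though each correlated best with its own number, so the numbers were not taken as pairs. A fit with a replicate block called 11 higher and 1 lower, and *Traf4* (adjusted p = 0.0493) and *Traf5* (adjusted p = 0.0397) passed in it by the adjusted p alone. Depth limits the genes at the floor. Those below the filter were not compared by the main test, only under some alternatives, as given for *Tnfsf8*.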
